A study of Mus musculus with 18 samples.

Results

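The members described here are 508 CRISPR guides aimed at 127 mouse genes, 4 guides to each gene, out of 18146 guides in the pooled screen of the series. They were taken by gene symbol alone: Gpr followed by a number, Gprc, the adhesion receptors (Adgr), and the adrenergic, muscarinic, dopamine, serotonin, sphingosine 1-phosphate, lysophosphatidic acid, P2Y, prostanoid and protease-activated receptor families. The symbol rule itself uses no measured value. The symbol pattern also took Htr3a and Htr3b, which are ion channel subunits, Ptgfrn, an immunoglobulin protein that associates with other membrane proteins, and Gpr137b, a lysosomal membrane protein.

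G protein-coupled receptors thread the plasma membrane repeatedly and pass the binding of a ligand to a G protein inside the cell. Gs raises cyclic AMP, Gi lowers it, and Gq releases calcium from internal stores. In tumours, prostaglandins, lysophospholipids, extracellular nucleotides, protons and catecholamines are ligands of such receptors, both on cancer cells and on the immune cells around them. A guide in the cancer cells can disable only the cancer cell's own copy of a receptor.

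The screen used MC38, a colon adenocarcinoma line from C57BL/6 mice, carrying a pooled guide library and implanted into C57BL/6 wild-type mice or into B6-Rag1-KO mice. Mice without Rag1 form no mature T or B lymphocytes. A single library was sequenced for each host, and the labels give neither the number of mice behind it nor the time of recovery. A guide with a ratio of C57BL/6 over Rag1-knockout below 1 was less abundant in the host that forms mature T and B lymphocytes. RNA libraries of the same line served as a second readout: 3 of control cultured cells and 5 of control tumours, both with wild-type Mbtps1.

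The C57BL/6 library held 27142741 reads and the Rag1-knockout library 19114273, of which receptor guides took 3.26% and 3.38%. Receptor guides had a median of 1524.5 reads (range 7 to 8052) in the C57BL/6 library and 991.5 (range 6 to 7760) in the Rag1-knockout library. The medians over all guides were lower, at 1211 and 777.5 reads. With 1 library for each host there was no replicate check and no test was made. Intervals printed below are exact Clopper-Pearson intervals at 95% of the unsmoothed ratio and cover counting error only. The guide table gives identifiers without sequences, so the target sites within each gene are not given here.

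Receptor guides were about as abundant in one host as in the other. Abundance is given as reads scaled to the library total (CPM), and the ratio as log2 of C57BL/6 over Rag1-knockout after adding 1 CPM to each. The median log2 ratio of the 508 guides was 0.10 (interquartile range -0.47 to 0.58), beside 0.12 (-0.47 to 0.69) over the 18108 guides of the whole library with at least 20 reads. All 508 receptor guides had at least 20 reads over both libraries. The 24 non-targeting guides had a median of 0.08.

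A ratio of at least 2-fold in favour of the C57BL/6 host was seen for 66 receptor guides (12.99%), where 14.9% of all guides reached it. A ratio of at least 2-fold in the other direction was seen for 47 (9.25%), where 11.1% of all guides reached it. Both shares were a little under those of the library. Receptor guides were also more abundant than the library median, and the shares past 2-fold changed with abundance, as given below. The part of abundance in these shares was not tested. Of the 113 receptor guides past 2-fold, 58.4% were higher in C57BL/6. With the non-targeting guides centred at 0 this was 50.4% of 113, and with median-of-ratios scaling 48.2% of 114. These scalings moved the median of all guides by -0.08 and -0.12, so values below are best read relative to the library median of 0.12.

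The spread of receptor guides was close to that of the library. The SD of the log2 ratio was 0.88 over receptor guides, 0.93 over all guides, 0.99 over 2128 guides to olfactory receptors, a family of sensory receptors, and 0.98 over the 24 non-targeting guides. The interquartile range was 1.04 wide for receptor guides, 1.16 for all guides and 0.861 for non-targeting guides, so the order of the first and last depends on the measure. Non-targeting guides ran from -2.28 to 1.84. Above that range lay 13 receptor guides (2.56%, beside 2.69% of all guides) and below it 6 (1.18%, beside 1.08%). Across the 508 guides, log2 abundance in the 2 hosts had a Pearson correlation of 0.78 and a Spearman correlation of 0.76, a description of libraries that share 1 guide pool.

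No receptor guide was missing from either library. In the whole library, 13 guides (0.0716%) had 0 reads in C57BL/6 and 8 (0.0441%) in Rag1-knockout. Of receptor guides, 5 (0.984%) had fewer than 20 reads in a library, where 0.997% of all guides did. Those 5 targeted Gpr82, Gpr63, Gpr160, Adgrf2 and Lpar2.

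The guides to 1 receptor often disagreed. The 4 guides of a gene share a target and a pool, and are not replicates of the host comparison. The median within-gene SD of the log2 ratio was 0.71 over the 127 receptor genes and 0.79 over the 4492 genes with 4 guides past the read minimum. The full width of the counting interval of a receptor guide had a median of 0.24, and it was under 0.5 for 457 of 508 guides. The differences among guides to 1 receptor were thus mostly larger than counting error. A total of 11 receptor genes had both a guide at least 2-fold higher and a guide at least 2-fold lower: S1pr3, Adgre5, Gpr20, Gpr12, Adgrl4, Htr7, Adgrg7, Gpr139, Htr1b, F2r and Gpr83. That is 8.66% of the receptor genes, and 14.3% of all genes with 4 guides.

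A gene was summarised by the median of its guides. The median was 1 or above for 3 receptor genes (2.36%, beside 3.54% of all genes with 4 guides) and -1 or below for 2 (1.57%, beside 1.83%). At least 2 guides were 2-fold higher in 11 genes (8.66%, beside 10.6%) and at least 2 were 2-fold lower in 8 (6.30%, beside 6.48%). No receptor had 3 guides at least 2-fold higher (1.56% of all genes did), and 1, S1pr3, had 3 at least 2-fold lower (0.787%, beside 0.735%). Every one of these shares lay near or under that of the library. All 4 guides were above 0 for 11 receptors (8.66%, beside 9.95%) and below 0 for 5 (3.94%, beside 4.01%), and the counts were 6 and 10 with median-of-ratios scaling and 8 and 8 with non-targeting guides centred at 0.

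Lipid receptors held the lowest gene. S1pr3 encodes a receptor for sphingosine 1-phosphate, a lipid that guides cell migration and vessel tone. Its guides had 1352, 974, 640 and 1690 reads in C57BL/6 and 4803, 2766, 1114 and 578 in Rag1-knockout. The log2 ratios were -2.31, -1.98, -1.27 and 1.02, with a median of -1.63. A group of 3 guides was thus lower in the C57BL/6 host and the fourth was higher. On summed reads the ratio was -1.50 (95% counting interval -1.55 to -1.45). The other measured receptor of the family, S1pr5, had guides at -1.98, -0.53, 0.61 and 0.78 and a median of 0.04. The gene S1pr3 lies on chromosome 13 of GRCm38 from 51408639 to 51422797 on the plus strand.

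Receptors for lysophosphatidic acid, a serum lipid that drives growth and motility, had 24 guides with a median of 0.18. Lpar2 was lowest (median -0.66), with 7, 3062, 2716 and 1080 reads in C57BL/6 against 37, 4922, 2111 and 619. Its guide with 7 reads against 37 had a wide counting interval, -4.32 to -1.72, and the guide at 3062 reads gave -1.18. Without that guide of few reads, at a minimum of 100 reads, the Lpar2 median was -0.14, and with 5 CPM added it was -0.27. At -0.14 Lpar2 was above Lpar4 (-0.20) and Lpar3 (-0.19). Lpar6 was highest, with guides at -0.42, 0.38, 0.40 and 0.57 and a median of 0.39. Lpar5 showed the tightest group of its family, from 0.25 to 0.42. Lpar1 guides fell in pairs, at -1.06 and -0.51 and at 0.80 and 0.92, and their median was 0.15.

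Prostanoid receptors bind prostaglandins made by the cyclooxygenases. This family, with Ptgfrn counted in by symbol, had an SD of 1.04 over 36 guides. That was second to the 1.37 over 8 guides of the sphingosine family. Ptgfr, the Gq-coupled receptor for prostaglandin F, had 114, 453, 2275 and 2498 reads in C57BL/6 and 541, 1813, 1948 and 1278 in Rag1-knockout. Its log2 ratios were -2.49, -2.44, -0.28 and 0.46. The median was -1.36, while the ratio of summed reads was -0.57. Ptgdr, a Gs-coupled receptor for prostaglandin D, had guides at -1.06, -1.02, -0.52 and 0.05 (median -0.77).

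Ptger4 and Ptger2 are the Gs-coupled receptors for prostaglandin E. Ptger4 guides had 220, 1746, 3108 and 4339 reads in C57BL/6 and 251, 919, 1325 and 200 in Rag1-knockout. The log2 ratios were -0.63, 0.41, 0.72 and 3.81. The last guide, at 160 CPM against 10.5, was the second highest of all receptor guides, and the median of the gene was 0.56, with a ratio of 1.30 on summed reads. Ptger2 guides stood at -0.49, -0.40, 0.20 and 1.42. Their median of -0.10 and the ratio of summed reads, 0.20, differed in sign. The remaining prostaglandin E receptors, Ptger1 and Ptger3, had medians of 0.07 and -0.04.

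Receptors for amines ran from a gene median of -0.91 for Htr5a to 0.73 for Adrb1. Adrenergic receptors, which bind adrenaline and noradrenaline, had a median of 0.13 over 32 guides, of which 6 (18.8%, beside 14.9% of all guides) were at least 2-fold higher and 2 (6.25%, beside 11.1%) at least 2-fold lower. Adrb1, a Gs-coupled beta receptor, was highest with guides at -0.22, 0.37, 1.08 and 1.44 (median 0.73). Adra2a, a Gi-coupled alpha receptor, was lowest, with 1274, 821, 2068 and 1490 reads against 5117, 1515, 1982 and 645, ratios of -2.49, -1.36, -0.44 and 0.69 and a median of -0.90. The related Adra1a, which couples to Gq, had guides at -0.49, -0.41, 1.15 and 1.93.

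Dopamine receptors had a median of 0.16 over 20 guides. Drd2 guides all lay above 0, from 0.10 to 0.68 (median 0.37), and Drd3, the lowest of the family, had a median of -0.20. A single Drd1 guide had 2105 reads against 7687, a ratio of -2.36, while the other Drd1 guides stood at 0.18, 0.55 and 0.84. Muscarinic acetylcholine receptors ran from a median of -0.09 for Chrm2 to 0.24 for Chrm5.

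Serotonin receptors gave a median of 0.07 over 44 guides, with 5 guides (11.4%) past 2-fold in each direction, beside 14.9% higher and 11.1% lower of all guides. Htr5a was lowest, with 2193, 2694, 2118 and 4625 reads against 3366, 4017, 2524 and 2884, ratios of -1.11, -1.07, -0.75 and 0.17 and a median of -0.91. Htr1a, a Gi-coupled receptor, was highest, with all 4 guides between 0.17 and 0.90 (median 0.56). The channel subunits Htr3a and Htr3b, counted with this family by symbol, had medians of -0.62 and 0.23.

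P2Y receptors sense extracellular nucleotides. P2ry13, a Gi-coupled receptor for ADP, was highest, with 207, 1688, 577 and 1130 reads in C57BL/6 and 154, 816, 157 and 287 in Rag1-knockout. Its guides stood at -0.07, 0.53, 1.27 and 1.41 (median 0.90). P2ry1, a Gq-coupled receptor for ADP, was lowest at -1.05, -0.89, -0.61 and 0.62 (median -0.75). P2ry6, a receptor for UDP, varied little, from -0.27 to 0.18.

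P2ry12, P2ry13, P2ry14 and the related Gpr171 lie side by side on the minus strand of chromosome 3, Gpr171 from 59096448 to 59101821 and P2ry12 from 59216272 to 59262871 (GRCm38). This block was picked after its values were seen. Its 16 guides had a median of 0.44, with 4 guides at least 2-fold higher (25%, beside 14.9% of all guides) and 0 at least 2-fold lower (beside 11.1%). The 4 higher guides belonged to P2ry13 and P2ry14, and P2ry12 had a median of 0.00 and Gpr171 of 0.44, so the genes of the block did not share 1 value.

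Protease-activated receptors are cut open by thrombin or trypsin-like enzymes. F2r, the thrombin receptor, had 1129, 2833, 687 and 391 reads in C57BL/6 and 2106, 1399, 325 and 56 in Rag1-knockout. Its guides were at -1.38, 0.51, 0.55 and 1.97, so they lay on both sides of 0. The F2r median of 0.53 and the ratio of summed reads, -0.13, differed in sign. F2rl1, which trypsin activates, had a median of 0.17 and guides from -0.38 to 1.06.

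Adhesion receptors carry long extracellular parts that bind matrix and neighbouring cells. Their 76 guides had a median of 0.02, which is -0.10 relative to the library. Adgre5, known as CD97, was lowest, with 2555, 911, 565 and 2156 reads in C57BL/6 and 7760, 1667, 562 and 593 in Rag1-knockout. The first of these guides was the most abundant receptor guide of the Rag1-knockout library, at 406 CPM against 94.1. The Adgre5 ratios were -2.10, -1.35, -0.48 and 1.33, and the median was -0.92. Adgrg2 was highest with guides at -0.92, 0.51, 1.17 and 1.43 (median 0.84). Adgrb1, a receptor for phosphatidylserine on dying cells, had all 4 guides below 0, from -1.24 to -0.32. The lowest single receptor guide of the screen targeted Adgrb3, with 134 reads against 947 and a ratio of -3.09, but the median of that gene was -0.30. Adgre1, the macrophage antigen F4/80, had guides from -0.42 to 0.84 (median 0.41), and Adgrg1 from -0.49 to 0.41 (median 0.01, but -0.08 and -0.12 under the 2 other scalings).

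Class C receptors of the Gprc group had 12 guides with a median of 0.37. Gprc5a, a retinoic acid-induced receptor, had guides at -0.19, 0.39, 0.97 and 1.75 (median 0.68), and Gprc5d was lowest with a median of -0.21. Gprc6a guides all lay above 0, from 0.20 to 1.68.

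Receptors named only by number, most of them without an agreed ligand, made up 50 of the 127 genes. Their 200 guides had a median of 0.11, beside 0.12 over all guides. Of these guides 27 (13.5%, beside 14.9% of all guides) were at least 2-fold higher and 15 (7.5%, beside 11.1%) at least 2-fold lower. This largest family held 6 of the 8 genes with the highest medians of the whole set: Gpr160 (1.10), Gpr151 (1.08), Gpr82 (1.07), Gpr83 (0.95), Gpr141 (0.74) and Gpr25 (0.73). Gpr160 had 2137, 31, 2501 and 774 reads in C57BL/6 and 1574, 16, 433 and 99 in Rag1-knockout. Its ratios were -0.06, 0.22, 1.98 and 2.26, so its guides divided into a pair near 0 and a pair far above it. At a minimum of 100 reads, which drops the guide with 31 and 16 reads, the Gpr160 median was 1.98. Gpr151 guides stood at -0.52, 0.76, 1.40 and 1.94, and the ratio of their summed reads was 0.41.

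Gpr82 held the highest single receptor guide, with 639 reads in C57BL/6 and 6 in Rag1-knockout. That guide had a log2 ratio of 4.22, and without the added 1 CPM its counting interval ran from 5.10 to 7.68. The other Gpr82 guides were at 0.26, 0.58 and 1.56, so all 4 were above 0. The gene lies on chromosome X from 13661363 to 13667433. With 5 CPM added in place of 1, the medians of Gpr160, Gpr151 and Gpr82 were 0.90, 0.91 and 0.92, and 0 receptor genes reached 1.

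Gpr25 guides were close together at 0.19, 0.67, 0.79 and 0.87. Gpr141 had guides at -0.15, 0.30, 1.18 and 1.20, and Gpr83 at -1.02, 0.94, 0.96 and 1.31. On summed reads Gpr141 stood at 0.35 and Gpr83 at 0.51. The lowest of the numbered receptors was Gpr173, with 400, 1526, 1588 and 453 reads against 963, 2414, 1896 and 197, ratios of -1.71, -1.15, -0.75 and 0.65 and a median of -0.95. Guides to Gpr4, a receptor that senses protons, ranged from -0.83 to 0.83 (median 0.13).

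Receptors were also grouped by the G protein that each is best known to engage. The median was 0.05 for 56 guides to 14 Gs-coupled receptors, 0.13 for 64 guides to 16 Gi-coupled receptors and 0.01 for 52 guides to 13 Gq-coupled receptors. The interquartile ranges overlapped, at -0.45 to 0.55, -0.56 to 0.56 and -0.39 to 0.54. The shares at least 2-fold higher were 14.3%, 10.9% and 17.3%, beside 14.9% of all guides, and the shares at least 2-fold lower were 8.93%, 10.9% and 7.69%, beside 11.1%. The 44 guides to 11 genes on chromosome X had a median of 0.08 and the 464 guides to autosomal genes 0.10.

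The ratio moved with mean abundance over the 2 libraries. Receptor guides were ranked by this mean and divided into 4 equal groups. The mean uses the same counts as the ratio, so a guide can enter a group through a high value in 1 host. The series lists no library of the pool before implantation that could give a separate abundance. The lowest group (0.636 to 30.1 CPM) had a median log2 ratio of 0.31. Of its 127 guides, 21 (16.5%, beside 18.2% of all guides in that range) were at least 2-fold higher. A further 11 (8.66%, beside 10.6%) were at least 2-fold lower. In the group with the highest abundance (86.9 to 251 CPM) the median was -0.14, with 9 higher (7.09%, beside 11.1%) and 22 lower (17.3%, beside 15.2%). Guides of the whole library in the same abundance ranges had medians of 0.21 and -0.09, the same order. The part of abundance in the ratio of any 1 receptor was not tested.

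RNA of the same cell line showed which of these receptors the cells transcribe. Of the 127 genes, 70 had a row in the gene table. A mean of at least 1 CPM in control cultured cells was reached by 29 receptor genes (22.8%), where 26.5% of all 4532 targeted genes reached it. A further 12 lay above 0 and under 1 CPM, 29 were listed at 0, and 57 had no row. No gene with reads in the cultured cells sums to fewer than 13 counts over their 6 libraries, so a listed 0 may stand for a few reads. In control tumours 49 (38.6%) reached 1 CPM, beside 38.7% of targeted genes, and those libraries hold RNA of host cells too. In tumours, fewer cells of a type and less RNA per cell cannot be told apart.

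The 10 receptor-set genes with the highest counts in cultured cells were Lpar1, Adgra3, Gprc5a, Adgrg6, Adgrl1, Adgrl2, Ptgfrn, F2r, Gpr149 and Adra1b. Lpar1 stood at 169, 156 and 128 CPM in the 3 control cell libraries, Gprc5a at 85.8, 82.9 and 98.3, and F2r at 64.0, 62.4 and 63.0. Per kilobase of exon, Gprc5a (42.7 CPM per kb) and Lpar1 (35.3) were the highest of these, followed by F2r (18.9), Adgra3 (15.7), Adra1b (13.4) and Gpr149 (13.1). Adra1b stood at 49.9, 47.2 and 38.5 CPM in cells and from 4.54 to 11.8 CPM (median 7.48) in tumours, so each cell library was above each tumour.

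Guides to these 10 transcribed genes had medians from -0.02 for Adgrg6 to 0.68 for Gprc5a. Adgra3 had guides at -0.12, 0.10, 0.17 and 1.44, Adra1b at -0.38, 0.09, 0.83 and 1.57, and Gpr149 at -0.46, -0.22, 0.82 and 1.62. Adgrl1 had guides at -0.14, 0.12, 1.02 and 1.12 (median 0.57, and 0.33 on summed reads), and Adgrg6 at -0.83, -0.63, 0.59 and 1.28. Adgrl2 (median 0.02) and Ptgfrn (median 0.06) changed sign with the scaling, to -0.06 and -0.03 with non-targeting guides centred at 0 and to -0.10 and -0.07 with median-of-ratios scaling.

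Most receptor genes had no row in the gene table or little listed RNA in culture, and so did most of those with the most extreme medians. Of the 8 highest and 8 lowest genes, S1pr3, Ptgfr, P2ry13 and Gpr141 were listed at 0 in all 3 control cell libraries. Gpr173, Htr5a, Ptgdr, P2ry1, Gpr82, Gpr151, Gpr83, Gpr25 and Adgrg2 had no row in the gene table. Adra2a stood at 0.490, 0.0660 and 0.351 CPM, Gpr160 at 0.280, 0.462 and 0.211, and Adgre5, which passed the minimum of 1 CPM on average, at 1.40, 0.660 and 1.19. Ptger4 stood at 0.910, 0.660 and 1.19 CPM. In control tumours S1pr3 ran from 1.33 to 2.75 CPM, Adgre5 from 12.8 to 22.1 and Gpr160 from 2.19 to 4.26.

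Guide ratios overlapped widely between receptors with and without listed RNA. The 116 guides to genes of at least 1 CPM in cells had a median of 0.09 and an SD of 0.78, and 14 were at least 2-fold higher and 9 at least 2-fold lower. The 116 guides to genes listed at 0 had a median of 0.19 and an SD of 0.85, with 16 higher and 10 lower. The 228 guides to genes with no row had a median of 0.10 and an SD of 0.91, with 28 higher and 24 lower. The 48 guides to genes above 0 and under 1 CPM had the lowest median, -0.03, and the largest SD, 1.06, with 8 higher and 4 lower. In the order of these classes, the shares higher were 12.1%, 13.8%, 12.3% and 16.7%, beside 14.9% of all guides, and the shares lower 7.76%, 8.62%, 10.5% and 8.33%, beside 11.1%. The interquartile ranges were -0.37 to 0.52, -0.37 to 0.54, -0.57 to 0.58 and -0.54 to 0.73.

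A set of 17 receptors reached 1 CPM in control tumours while listed at 0 in cultured cells. Adgre1 ran from 27.8 to 107 CPM (median 55.0) in the 5 tumours and P2ry6 from 36.0 to 55.4 (median 44.7). Gpr171 stood at 9.68 to 21.4 CPM and P2ry13 at 7.03 to 11.7. The set also held Adgrf5, at 14.5 to 20.6 CPM, and Adgrl4, at 3.99 to 7.74. Listed leukocyte and endothelial markers were also higher in tumours than in the cells, while fibroblast markers were mixed. The leukocyte markers Ptprc and Csf1r were at 0 in the cells and at 39.5 to 59.6 and 161 to 295 CPM in tumours. The endothelial markers Pecam1 and Cdh5 were at most 0.700 and 0.772 CPM in the cells and at 23.8 to 44.3 and 29.7 to 46.4 in tumours. The fibroblast marker Col1a1 was at most 0.490 CPM in the cells and at 336 to 502 in tumours. The part of host cells in these receptor levels was not tested. The 68 guides to the 17 genes had a median of 0.19, with 13 at least 2-fold higher (19.1%, beside 14.9% of all guides) and 5 at least 2-fold lower (7.35%, beside 11.1%). Of the epithelial markers of the labelled carcinoma line, Epcam and Cdh1 were listed at 0 in the cells, Krt8 stood at 1.26 to 3.76 CPM, and Krt18 and Cdx2 had no row. The fibroblast markers Pdgfra (184 to 225 CPM) and Dcn (119 to 197 CPM) were high in the same cells. In tumours Pdgfra was at 149 to 196 CPM and Dcn at 186 to 316, ranges that overlap those of the cells. Epcam was at 0.255 to 0.671 CPM in tumours, Cdh1 at 3.16 to 5.77, and Krt8 was listed at 0.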

How the data were processed

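Per the labels, guides of MC38 cells recovered from 2 kinds of host were sequenced, 1 library each, beside RNA libraries of cells and tumours. The authors deposited whole-number read counts per guide and per gene, with no normalisation. The counting of guide reads is not described in the labels. The submitters' processing notes name STAR 2.7.1a and HTSeq 0.13.5 without roles, and the human build hg38, although the genes carry mouse symbols.

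Guide counts were scaled to library totals (CPM), 1 CPM was added, and log2 ratios of C57BL/6 over Rag1-knockout were computed where a guide reached 20 reads in the libraries combined. A gene's value is the median of its guides, and at least 2-fold (log2 of 1) is the size named. RNA levels are CPM of 14240353 to 15155599 counts per control cell library and 19630410 to 28316572 per control tumour library, with exon lengths and positions from GENCODE M21 (GRCm38), in which all 127 symbols were found. The labels do not say that replicates came from separate cultures or animals. A floor of 3 counts equals 0.111 CPM in C57BL/6 and 0.157 CPM in Rag1-knockout. Reads carry no molecular identifiers, so intervals cover counting error only.

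Named genes were the highest and lowest of each family with at least 3 genes, the 8 highest and 8 lowest of all members, a list of receptors of tumour immunity (those in the table), and the 10 with the most RNA counts in cells; other genes were named to describe counts, after their values were seen. Members and lists were chosen with earlier results of these data known. The ratio calculation was run on counts simulated with planted changes and counting error only. Such counts lack the wider spread of the real guides, so that run cannot judge the 2-fold shares. Python 3.11.15, pandas 2.3.3, scipy 1.17.1 and edgeR 4.0.16 (TMM factors only) were used. Alternatives covered pseudocount, read minimum, scaling, gene summary and leaving out RNA libraries.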

Additional observations from a re-analysis of the deposited data

Results flagged for a closer look

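Among the receptor genes named by rule, 25 had RNA values in the 5 control tumour libraries and were examined for a library standing apart, and chance flags about 1 in 20 groups. Adgrl1 had 1 low library at 76.4 CPM, where the median was 89.9 and the highest 91.4. F2r had 1 low library at 26.8 CPM, where the median was 39.2 and the highest 39.6. Ptgfr had 1 high library at 0.366 CPM, where the median was 0.158 and the lowest 0.141, a level of few reads. In each of these 3 genes the library that stood apart was the same, control tumour replicate 1.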

How the results depend on the processing

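The median log2 ratio of receptor guides was 0.091 with 5 CPM added, 0.014 with non-targeting guides centred at 0 and -0.028 with median-of-ratios scaling; relative to all guides it stayed between -0.03 and -0.01 under every setting tried. Counts of receptor guides at least 2-fold higher (54 to 67) or lower (38 to 59) stayed within 1.5 times the reported 66 and 47. Receptor genes with RNA in control cells numbered 15 at a minimum of 5 CPM, and 28 to 30 when leaving out 1 library. Leaving out each control tumour in turn, chosen after seeing the data, gave 49 to 50 receptor genes with RNA in tumours and 17 to 18 of these listed at 0 in cells, with 49 and 17 without replicate 1. Of the 40 genes named by rule, 4 changed sign on summed reads (Adgrg1, Adgrg6, F2r and Ptger2) and 3 under each other scaling. Over all 127 genes, 24 (18.9%) differed in sign between the median and summed reads. On summed reads 6 of the 40 crossed 2-fold: Adgre5 (-1.28), Adra2a (-1.22) and Ptger4 (1.30) beyond it, and Gpr151 (0.41), Gpr160 (0.85) and Ptgfr (-0.57) within it. Genes with a median of -1 or below numbered 3 and 6 under those scalings, and 1 gene, Gpr160, stayed at 1 or above. No paired analysis was possible because each host has 1 library and no test was made. Guides with fewer than 20 reads in a library, as in Lpar2 and Gpr160, have the widest counting intervals.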
